A study of Mus musculus with 6 samples.

Results

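The 10 genes described here encode the core of the microRNA pathway: Drosha, Dgcr8, Xpo5, Dicer1, Ago1, Ago2, Ago3, Tnrc6a, Tnrc6b and Tnrc6c. They were chosen by name, for their known function, from the 43760 gene rows of an RNA-seq count table of 3T3-L1 cells, and all 10 were found. 3T3-L1 is a mouse embryo fibroblast line that turns into fat cells when treated with a hormone cocktail. Cells harvested at day 7, after adipogenic differentiation with IBMX, insulin, dexamethasone and rosiglitazone, were set against cells harvested at day 0 without differentiation. Both groups are labelled as WT fibroblasts of the same line, and each has 3 libraries of total RNA. Nothing in the labels tells whether the libraries of a group are separate cultures. The p-values therefore reflect the spread between these libraries, which may be technical.

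MicroRNA genes are transcribed as long primary transcripts with a hairpin. In the nucleus the microprocessor, made of the RNase Drosha and its RNA-binding partner Dgcr8, cuts the hairpin out. Exportin-5, the product of Xpo5, carries the hairpin to the cytoplasm, where Dicer1 trims it to a short duplex. An Argonaute protein keeps 1 strand and finds messenger RNAs through its seed. The Tnrc6 (GW182) proteins bind Argonaute and recruit the deadenylases that silence the target. Several microRNAs, miR-103, miR-107 and miR-26a among them, are known for roles in fat cell differentiation and insulin signalling. The libraries measured messenger and other long RNA, so mature microRNAs were not quantified.

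The cells carried the markers of their labels. All 6 adipocyte markers rose at day 7, with a summed level of 3409 to 5610 CPM (counts scaled to sequencing depth) at day 7 against 28.9 to 36.0 CPM at day 0. Pparg, the master regulator of fat cell differentiation, averaged 171 ± 31.5 CPM at day 7 and 13.5 ± 1.44 CPM at day 0 (SD, n = 3 each). All 6 preadipocyte and fibroblast markers fell, with a summed level of 2448 to 3590 CPM at day 7 against 7963 to 9095 CPM at day 0, so day 7 libraries still held RNA of these genes. Markers of leukocytes, endothelium, epithelium and muscle summed to at most 4.07 CPM in any library, and Epcam, Cdh1, Myod1 and Myog were listed at 0. Krt18, an epithelial marker, rose from 0 in each day 0 library to 1.25 to 3.80 CPM at day 7 (edgeR adjusted p 0.0024). The gene rows held 4 of 5 leukocyte markers and 3 of 4 muscle markers, without Adgre1 and Ckm. Library totals ran between 7655822 and 16987076 counts. Mitochondrially encoded genes took 9.49 to 13.7% of counts at day 7 and 3.20 to 3.64% at day 0. The third day 7 column stood apart from the other day 7 columns on the second principal component, which held 8.21% of the variance. Its markers went both ways. It had the most Dlk1, a preadipocyte marker: 254 CPM, against 50.9 and 133 CPM in the first and second columns. It also had the most Pparg, 207 CPM against 156 and 150 CPM. Among the preadipocyte and fibroblast markers, Pdgfra and Thy1 were also highest there, and Vim and Col3a1 were lowest. The table heads each of the 3 day 7 columns with replicate 1, so they are named here by their position.

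All 10 genes passed the filter on low counts and were tested in 1 edgeR quasi-likelihood fit over 12354 genes, with Benjamini-Hochberg adjustment over all of them. At an adjusted p under 0.05, 3 of the 10 rose (Ago3, Ago2 and Tnrc6b), 2 fell (Dgcr8 and Drosha) and 5 passed in neither direction. Among all genes tested, 30.8% rose and 29.2% fell, 60.0% together, so the count over the 10 genes is near the background. The day 7 and day 0 libraries did not overlap for 5 of the 10 genes, the same 5, against 68.3% of all genes tested (8434 of 12354). None of the 10 changed by 2-fold or more, whereas 1979 genes rose and 2184 fell by at least that much. The median log2 fold change was 0.10 over the 10 genes and 0.02 over all genes, with quartiles of -0.11 and 0.49 over the 10 genes and -0.65 and 0.66 over all genes. In bulk RNA, a change in the share of cells that express a gene and a change in RNA per cell cannot be told apart.

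The calls changed when libraries were left out, while the called genes kept their direction. The log2 fold change ran from 0.46 to 0.72 for Ago2, 0.44 to 0.69 for Tnrc6b and -0.37 to -0.24 for Drosha. Without day 0 replicate 3 only Ago3 rose and only Dgcr8 fell. Without day 0 replicate 1, Ago2 and Ago3 rose and none fell, and without day 0 replicate 2 the count was 3 rising and 0 falling. Without the third day 7 column it was 3 and 2. Without the first day 7 column, or without the second, Drosha lost the call and only Dgcr8 fell. In the day 0 fits that lost their calls, Dgcr8 stood at -0.39 and -0.35 (against -0.37 with all libraries), Drosha at -0.35, -0.33 and -0.27 (against -0.31) and Tnrc6b at 0.57 and 0.50 (against 0.59). Over all genes, 3118 to 3200 rose and 2999 to 3090 fell in these fits, against 3802 and 3611 with all libraries. When libraries were scaled by total counts alone, which moved the median of all genes to -0.21, 1 of the 10 rose and 2 fell. Leaving out mitochondrially encoded genes gave 3 and 2.

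**Figure D1:**
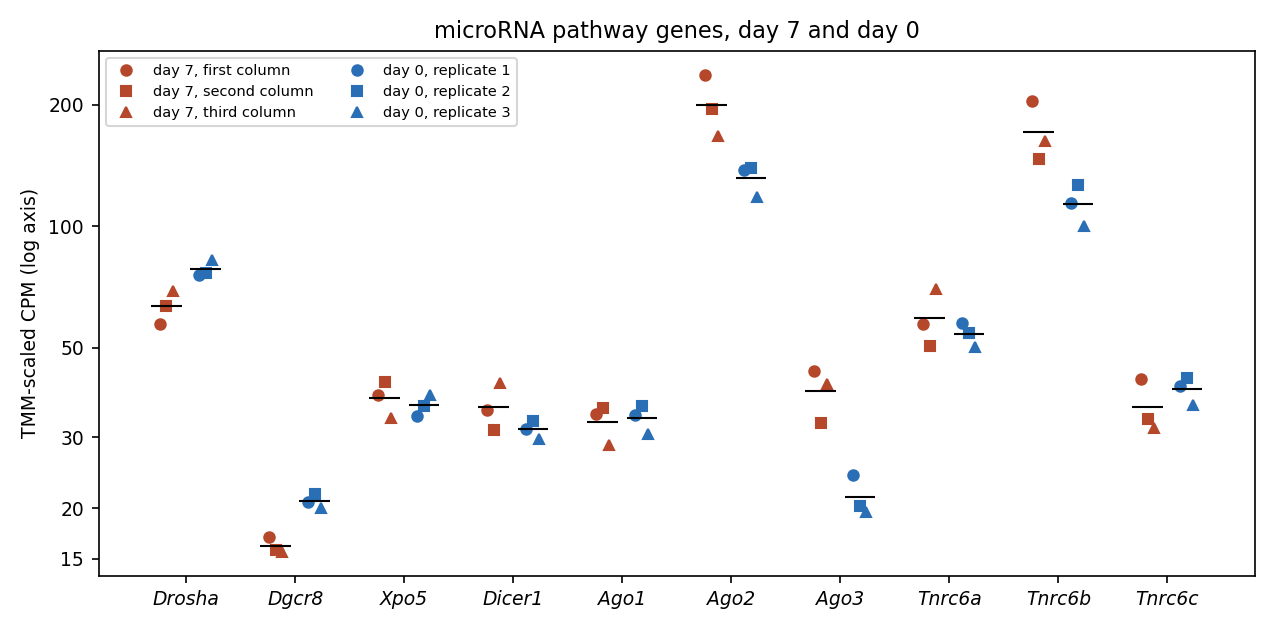
TMM-scaled CPM of the 10 genes (y axis, log scale) in the 3 day 7 columns (red, left of each pair) and the 3 day 0 replicates (blue); horizontal lines are group means. The day 7 and day 0 points do not overlap for Drosha, Dgcr8, Ago2, Ago3 and Tnrc6b, and they overlap for the other 5 genes.

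The nuclear step came first in the pathway and showed the 2 decreases. Drosha, the RNase of the microprocessor (GRCm38, chr15:12824815-12935291, plus strand), had 57.2, 63.5 and 69.3 CPM in the day 7 columns, against 75.6, 76.4 and 82.5 CPM in the day 0 replicates. Each day 7 library was below each day 0 library. The log2 fold change was -0.31 ± 0.11 (SE; 95% interval -0.56 to -0.06), a 1.24-fold decrease with an edgeR adjusted p of 0.039. The call was kept in 1 of 6 fits that left out a library, without the third day 7 column (adjusted p 0.0097), and was lost in the other 5 (adjusted p 0.066 to 0.13).

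Dgcr8, the RNA-binding partner of Drosha (chr16:18253948-18289246, minus strand), had 16.9, 15.8 and 15.6 CPM at day 7, against 20.7, 21.7 and 20.1 CPM at day 0. The groups did not overlap, and the spread within each was small, 16.1 ± 0.727 CPM at day 7 and 20.9 ± 0.833 CPM at day 0 (SD, n = 3 each). The log2 fold change was -0.37 ± 0.11 (95% interval -0.63 to -0.11), a 1.29-fold decrease with an edgeR adjusted p of 0.021. It lost the call without day 0 replicate 1 (adjusted p 0.061) and without day 0 replicate 2 (0.085).

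The log2 ratio of Drosha to Dgcr8 averaged 1.94 ± 0.197 at day 7 and 1.88 ± 0.115 at day 0, a difference of 0.06 (exact two-sided permutation test, p = 0.8). It was chosen after the values of both genes were seen. With 3 libraries against 3, such a test cannot go below 0.1.

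Dgcr8 carries hairpins of its own in exon 2 of 14, and cutting of hairpins in this exon by the microprocessor is a known feedback on the Dgcr8 messenger RNA. The hairpin of miR-1306 lies in the coding part (chr16:18284239-18284317, minus strand), and that of miR-3618 lies in the 5′ UTR (chr16:18284550-18284637). Their mature strands, from RefSeq (GRCm38.p6), are shown because they sit inside the gene that fell; capitals mark the seed, bases 2 to 8.
miR-1306-3p: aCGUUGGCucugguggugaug
miR-1306-5p: cACCACCUccccugcaaacgucc
miR-3618-3p: cUACAUUAaugaaaagagcaau
miR-3618-5p: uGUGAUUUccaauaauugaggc
No pair among the 4 shares a seed. Xpo5 also holds a hairpin, miR-693, in an intron, and Tnrc6b holds miR-5113 in its last exon, in the 3′ UTR. All 4 hairpin rows were listed at 0 in all 6 libraries, as were 1043 of the 1058 rows named for a hairpin, so these libraries give no measure of them. Drosha shares 72 exon bases with Gm47288, an annotated microRNA gene on the same strand that had no row of its own. Dgcr8 shares 327 exon bases with Gm49776, a protein-coding gene on the same strand that had no row of its own. The Dgcr8 count was fractional in 1 library, day 0 replicate 3 (240.85). Dgcr8 also shares 825 exon bases with Trmt2a, a tRNA methyltransferase gene on the opposite strand. The kit marks strand, but whether the counting used strand is not given in the sources used here. Trmt2a did not pass, at 19.8 ± 1.15 CPM at day 7 and 17.2 ± 0.809 CPM at day 0 (log2 fold change 0.20, edgeR adjusted p 0.16).

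Export and dicing showed no call. Xpo5, the exporter of hairpins (chr17:46202782-46243598, plus strand), had 38.2, 41.1 and 33.5 CPM at day 7, against 33.9, 35.9 and 38.2 CPM at day 0. The groups overlapped, with a log2 fold change of 0.06 (95% interval -0.19 to 0.32, edgeR adjusted p 0.64). Dicer1 (chr12:104687742-104751952, minus strand) had 35.1, 31.2 and 40.9 CPM at day 7, against 31.5, 33.0 and 29.8 CPM at day 0. Its highest value was in the third day 7 column, and the second day 7 column lay inside the day 0 range. The log2 fold change was 0.18 (95% interval -0.10 to 0.47, edgeR adjusted p 0.23).

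The balance of the nuclear and the cytoplasmic RNase was measured as a ratio within each library. The log2 ratio of Drosha to Dicer1 was 0.69, 1.01 and 0.75 at day 7, against 1.25, 1.20 and 1.45 at day 0. Each day 7 ratio was below each day 0 ratio, with a difference of -0.48 on the log2 scale. The exact two-sided permutation test gave p = 0.1, the smallest it can give, and 0.2 after Benjamini-Hochberg adjustment over the 6 ratios compared.

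Among the Argonautes, Ago2 is the one whose slicer activity cuts fully paired targets, and it had the highest count of the 10 genes. Ago2 (chr15:73095844-73184935, minus strand) had 238, 196 and 168 CPM at day 7, against 138, 139.8 and 118 CPM at day 0. Each day 7 library was above each day 0 library, though the day 7 columns spread widely, 200.3 ± 35.2 CPM, against 132 ± 12.1 CPM at day 0 (SD, n = 3 each). This was a log2 fold change of 0.60 ± 0.16 (95% interval 0.24 to 0.97), a 1.52-fold increase with an edgeR adjusted p of 0.011. The call was lost without day 0 replicate 3 (0.52, adjusted p 0.056) and with total counts alone (0.38, adjusted p 0.19). Ago2 shares 219 exon bases with Chrac1 on the opposite strand, a chromatin remodelling gene at 5.82 ± 0.953 CPM at day 7 and 8.28 ± 1.31 CPM at day 0 (edgeR adjusted p 0.061).

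Ago3 (chr4:126331704-126429556, minus strand) showed the largest fold change of the 10 genes. It had 43.9, 32.6 and 40.6 CPM at day 7, against 24.2, 20.3 and 19.6 CPM at day 0. The lowest day 7 value was above the highest day 0 value. The log2 fold change was 0.87 ± 0.15 (95% interval 0.53 to 1.21), a 1.83-fold increase with an edgeR adjusted p of 0.0014. It kept the call in all 6 fits that left out a library, at 0.77 to 0.98, and with total counts alone, at 0.66 (adjusted p 0.026).

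Ago1 (chr4:126435012-126468583, minus strand), the neighbour of Ago3 on the chromosome, had 34.3, 35.4 and 28.8 CPM at day 7, against 34.1, 35.8 and 30.5 CPM at day 0. The groups overlapped almost fully, with a log2 fold change of -0.03 (95% interval -0.30 to 0.25, edgeR adjusted p 0.87). Ago4, the remaining Argonaute, was near the floor, with 0, 1 and 10 counts at day 7 and 7, 14 and 15 counts at day 0. Its log2 fold change of -1.34 did not pass (edgeR adjusted p 0.30), and without the third day 7 column it was -4.32 (adjusted p 0.0052).

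The values of Ago1 and Ago3 are not fully separate. Their deposited counts were fractional in all 6 libraries, while the sum over both genes was whole to within 0.001: 1379, 668 and 511 at day 7, and 665, 903 and 601 at day 0. Reads that fit both genes had therefore been divided between them by estimation, and the files do not say how many there were. The coding sequences share an identical stretch of 170 bases in exon 12 of 19 of both genes. It lies at chr4:126448778-126448947 in Ago1 and chr4:126363657-126363826 in Ago3, both on the minus strand. It is printed below, from the GENCODE M21 transcripts of GRCm38, because a read that falls inside it cannot be given to 1 of the 2 genes; capitals are not used.
Ago1 and Ago3, shared: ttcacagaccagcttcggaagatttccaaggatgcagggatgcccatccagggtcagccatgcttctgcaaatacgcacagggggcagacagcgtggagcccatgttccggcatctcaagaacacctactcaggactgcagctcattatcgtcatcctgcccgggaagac
The stretch is 2.09% of the exon length of Ago1 and 1.03% of that of Ago3. The next longest stretch shared among the Argonautes was 53 bases, between Ago1 and Ago2. With the 2 genes added into 1 row, an alternative chosen after seeing the data, the sum was 77.9, 67.9 and 69.1 CPM at day 7, against 58.1, 56.5 and 50.3 CPM at day 0. The groups did not overlap, and the sum rose by 1.30-fold (log2 fold change 0.38 ± 0.11, edgeR adjusted p 0.016). It lost the call without day 0 replicate 2 (adjusted p 0.054), without day 0 replicate 3 (0.073) and with total counts alone (0.17, adjusted p 0.50).

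**Figure D2:**
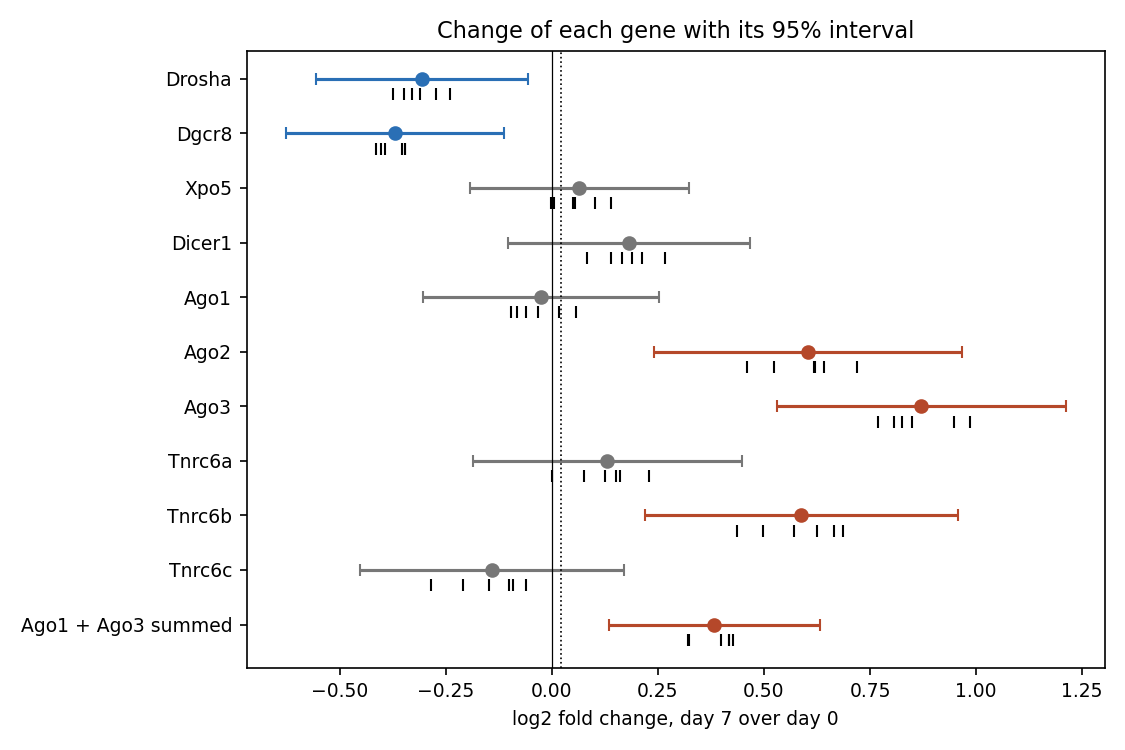
Log2 fold change, day 7 over day 0 (x axis), of each gene and of Ago1 and Ago3 summed; points are the edgeR estimates, bars the 95% intervals, and black ticks the estimates with each library left out in turn. Red rose, blue fell and grey did not pass; the dotted line is the median of all genes, 0.02. Ago3 stands highest at 0.87 and Dgcr8 lowest at -0.37.

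The last step is silencing by the Tnrc6 proteins, the scaffolds that link Argonaute to deadenylation. Tnrc6b (chr15:80711313-80941085, plus strand) had 204, 147 and 162 CPM at day 7, against 114, 127 and 100.3 CPM at day 0. The groups did not overlap, and the first day 7 column was the highest. The edgeR estimate was a log2 fold change of 0.59 ± 0.16 (95% interval 0.22 to 0.96), a 1.503-fold increase with an edgeR adjusted p of 0.014. It lost the call without day 0 replicate 1 (adjusted p 0.057), without day 0 replicate 3 (0.065) and with total counts alone (0.38, adjusted p 0.22).

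The other two Tnrc6 genes did not pass. Tnrc6a (chr7:123123885-123195296, plus strand) had 57.2, 50.6 and 70.1 CPM at day 7, against 57.7, 54.2 and 50.2 CPM at day 0, and the ranges overlapped (log2 fold change 0.13, 95% interval -0.19 to 0.45, edgeR adjusted p 0.43). Tnrc6c (chr11:117654289-117763439, plus strand) had 41.9, 33.3 and 31.6 CPM at day 7, against 40.2, 42.1 and 36.0 CPM at day 0. The first day 7 column lay inside the day 0 range and the other two lay below it (log2 fold change -0.14, 95% interval -0.45 to 0.17, edgeR adjusted p 0.39).

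The difference between paralogs was measured as a ratio within each library, which does not depend on how libraries were scaled apart from the pseudocount. The log2 ratio of Tnrc6b to Tnrc6c averaged 2.24 ± 0.112 at day 7 and 1.51 ± 0.0607 at day 0 (SD, n = 3 each), a difference of 0.73 that was chosen for testing after the values were seen. That of Tnrc6b to Tnrc6a differed by 0.46 and its groups overlapped (exact two-sided permutation test, p = 0.2, adjusted 0.3). The log2 ratio of Ago2 to Ago1 averaged 2.58 ± 0.171 at day 7 and 1.96 ± 0.0321 at day 0, a difference of 0.62. For Tnrc6b to Tnrc6c and for Ago2 to Ago1, the exact two-sided permutation test gave p = 0.1, the smallest it can give, and 0.2 after adjustment over the 6 ratios. The ratio of Ago2 to Ago3 differed by -0.26 (exact two-sided permutation test, p = 0.3, adjusted 0.36), so a difference between the rises of these 2 genes was not shown.

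Levels of different genes were compared as TMM-scaled CPM per kb of exon. At day 7, Ago2 stood first with 14.3 ± 2.51 CPM per kb, followed by Drosha with 10.7 ± 1.02 and Tnrc6b with 7.22 ± 1.25 CPM per kb (SD, n = 3). At day 0 Drosha stood first with 13.2 ± 0.634 CPM per kb, followed by Ago2 with 9.40 ± 0.860 CPM per kb. In both groups the ranges of Ago2 and Drosha did not overlap, in opposite order. That order depended on the length used, a check chosen after seeing the data. Per kb of coding sequence, Ago2 stood first in both groups, with 77.6 ± 13.6 CPM at day 7 and 51.1 ± 4.68 CPM at day 0, and Drosha followed Tnrc6b, with 15.4 ± 1.46 CPM at day 7 and 18.98 ± 0.913 CPM at day 0. Per kb of the longest transcript, the ranges of Ago2 and Drosha overlapped at day 7. Per kb of exon, Xpo5 (5.48 ± 0.557 at day 7 and 5.25 ± 0.311 CPM per kb at day 0), Tnrc6a and Ago1 followed at day 7, and each overlapped with the next. At day 0 Tnrc6b stood between Xpo5 and Tnrc6a and overlapped with both. Dgcr8 was the lowest of the 10 genes at day 7, at 2.09 ± 0.0945 CPM per kb, within the range of Dicer1 at 2.13 ± 0.289 CPM per kb. At day 0 the lowest was Ago3, at 1.29 ± 0.148 CPM per kb, below Dicer1 at 1.88 ± 0.0961 CPM per kb with no overlap. Per kb of coding sequence the lowest of the 10 genes were Tnrc6c at day 7 and Dicer1 at day 0. Ago4 averaged 0.0700 CPM per kb at day 7 and 0.131 CPM per kb at day 0.

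The makeup of each family was taken as the share of each gene in its family's counts per exon length. Ago2 held 71.1, 68.7 and 65.9% of the Argonaute total at day 7, against 63.0, 63.4 and 62.1% at day 0. Each day 7 share was above each day 0 share, a difference of 5.72 percentage points. Ago1 held 17.7, 21.5 and 19.6% at day 7, against 27.0, 28.04 and 27.8% at day 0, a difference of -7.999 points, also with no overlap. Ago3 held 11.1, 9.69 and 13.5% at day 7, against 9.37, 7.79 and 8.76% at day 0. In the other family, Tnrc6b held 52.6, 48.5 and 46.2% at day 7, against 38.6, 41.5 and 38.5% at day 0, a difference of 9.55 points. Tnrc6c held less of the total, 18.9 ± 2.04% at day 7 and 25.3 ± 0.255% at day 0, and Tnrc6a overlapped between the groups. For each of these shares except Tnrc6a (p = 0.4), the exact two-sided permutation test gave p = 0.1, its smallest value. With coding length in place of exon length the difference for Ago2 was 3.02 points, and that for Ago1 was -5.74 points.

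**Figure D3:**
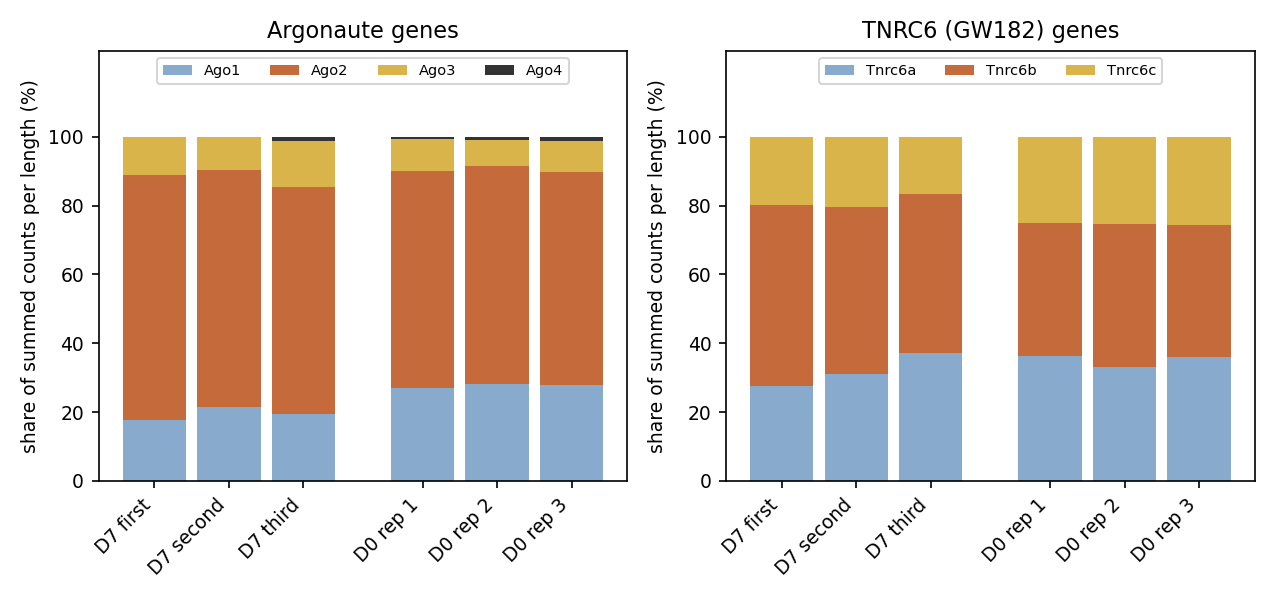
Share (%) of each gene in its family's summed counts per exon length, for the Argonaute genes (left panel) and the Tnrc6 genes (right panel), with 1 bar a library and the 3 day 7 bars (D7) left of the 3 day 0 bars (D0). Ago2 held 65.9 to 71.1% at day 7 and 62.1 to 63.4% at day 0; Tnrc6b held 46.2 to 52.6% at day 7 and 38.5 to 41.5% at day 0.

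The genes whose profile over the 6 libraries lay closest to Ago3, among 7748 genes of at least 10 CPM, were Adrm1, St3gal4 and Ttc39b, at root mean square distances of 0.0608, 0.0685 and 0.0749 on the log2 CPM scale. Those closest to Dgcr8 were B230219D22Rik, Ccdc71 and Arl2bp, at 0.0298, 0.0353 and 0.0366. These distances describe 6 libraries that share 2 groups.

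The proteins that work beside the core were described from lists chosen by function. Among 14 partners of the microprocessor, 5 rose, 7 fell and 2 did not pass, with a median log2 fold change of -0.34 against 0.02 for all genes; of all genes tested, 30.8% rose and 29.2% fell, 60.0% together. Hnrnpa1, an RNA-binding protein that remodels some primary microRNAs in human cells, averaged 60.8 ± 11.4 CPM at day 7 and 153 ± 1.10 CPM at day 0, a 2.53-fold decrease (edgeR adjusted p 0.00016). It kept the call in every fit that left out a library. Safb2, a scaffold attachment factor that aids cutting of suboptimal hairpins, averaged 42.1 ± 2.87 CPM at day 7 and 17.6 ± 0.397 CPM at day 0, a 2.39-fold increase (edgeR adjusted p 3.9e-05). The pair with no call was Ddx17, a helicase of the large microprocessor complex (179 ± 17.1 CPM at day 7 and 219.8 ± 10.8 CPM at day 0, edgeR adjusted p 0.070), and Ilf2, an RNA-binding complex subunit (16.1 ± 1.29 and 17.7 ± 1.59 CPM at day 7 and day 0, adjusted p 0.40). With total counts alone, 2 of the 14 rose. Ddx17 passed as a decrease with DESeq2 (adjusted p 0.032), with upper-quartile scaling (0.037) and without the third day 7 column (0.012). Ddx5, another helicase of this list, rose by 1.95-fold (577 ± 128 CPM at day 7 and 296 ± 1.66 CPM at day 0, edgeR adjusted p 0.0028). That call was kept in every fit that left out a library.

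Of 11 genes for export, dicing and precursor modification, 9 could be tested: 1 rose, 3 fell and 5 did not pass, with a median log2 fold change of -0.03. Of all genes tested, 60.0% passed. Adar, which edits adenosine to inosine in double-stranded RNA, averaged 12.4 ± 3.49 CPM at day 7 and 62.2 ± 6.76 CPM at day 0, a 5.07-fold decrease (edgeR adjusted p 4.5e-05). Adarb1, the related editing enzyme, averaged 20.5 ± 3.68 CPM at day 7 and 9.88 ± 1.42 CPM at day 0, a 2.07-fold increase (edgeR adjusted p 0.0017). The 2 editing enzymes thus moved in opposite directions. Zc3h12a, an RNase that cuts some precursors in the loop, averaged 12.8 ± 7.12 CPM at day 7 and 36.6 ± 3.24 CPM at day 0 (2.92-fold lower, edgeR adjusted p 0.0043). Ran, the GTPase that works with exportin-5, was the third to fall, by 1.58-fold (edgeR adjusted p 0.0012).

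The partners of Dicer showed no call. Tarbp2 and Prkra, its double-stranded RNA-binding cofactors, had log2 fold changes of -0.03 and 0.31 (edgeR adjusted p 0.91 and 0.33). Zcchc11 and Zcchc6, which add uridines to precursors, had -0.23 and 0.08 (adjusted p 0.074 and 0.48), and Dis3l2, the exonuclease that degrades uridylated precursors, had 0.12 (adjusted p 0.62). Without the third day 7 column 2 of the 9 rose and 5 fell: Prkra then passed as an increase (0.56, adjusted p 0.0062) and Zcchc11 as a decrease (-0.27, adjusted p 0.029). Over all genes, 4185 rose and 4044 fell in that fit, of 12712 tested. Zcchc11 also passed with upper-quartile scaling (-0.28, adjusted p 0.032) and with genes of at least 10 CPM in 3 libraries (-0.24, adjusted p 0.049). Lin28a, a blocker of let-7 maturation, was listed at 0. Its paralog Lin28b had 1 count at day 7 and 33 counts at day 0, summed over libraries, and was too low to test; scaled for depth, the day 0 to day 7 ratio was 29.1 (95% counting interval 4.87 to 1184).

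Among 18 genes for Argonaute loading and its partners, 4 rose, 6 fell and 8 did not pass, with a median log2 fold change of -0.22. This is near the 60.0% called among all genes. Ajuba, a LIM protein of the silencing complex, averaged 3.58 ± 1.08 CPM at day 7 and 19.0 ± 1.002 CPM at day 0, a 5.50-fold decrease (edgeR adjusted p 7.3e-05). Mov10, a helicase that associates with Argonaute, averaged 21.0 ± 2.74 CPM at day 7 and 44.1 ± 4.41 CPM at day 0, a 2.11-fold decrease (edgeR adjusted p 0.00030). Fmr1, an RNA-binding translation regulator, averaged 124.6 ± 28.4 CPM at day 7 and 64.7 ± 2.45 CPM at day 0, a 1.93-fold increase (edgeR adjusted p 0.0022). Hsp90aa1, Fkbp4, Tsn and Wtip also fell, by 1.24-, 1.27-, 1.36- and 1.68-fold (edgeR adjusted p 0.042, 0.034, 0.016 and 0.018). The other 3 that rose were Fxr2, Fxr1 and Ipo8, the last an importin that binds Argonaute. Ipo8 (edgeR adjusted p 0.044) kept the call in 1 of 6 fits that left out a library, without the first day 7 column, and the groups of Fxr1 overlapped (adjusted p 0.049). Fxr1 lost the call under every other scaling, filter and tool tried (adjusted p 0.050 to 0.64) and in 5 of 6 fits that left out a library, all but that without the third day 7 column. Leaving out day 0 replicate 1 gave 2 rising and 3 falling, leaving out day 0 replicate 2 gave the same counts, and leaving out day 0 replicate 3 gave 2 and 4. Over all genes, 3118 to 3200 rose and 2999 to 3090 fell in these fits, of 12522 to 12728 tested. Without the second day 7 column 2 rose and 6 fell, beside 3672 rising and 3508 falling among 12556 genes tested. Without the third 3 rose and 9 fell, beside 4185 rising and 4044 falling among 12712 genes tested.

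Of 26 silencing effectors that act after the Tnrc6 proteins, 8 rose, 4 fell and 14 did not pass, with a median log2 fold change of -0.09, beside 30.8% rising and 29.2% falling among all genes. Patl1, a decapping activator, averaged 67.3 ± 11.05 CPM at day 7 and 38.1 ± 0.589 CPM at day 0, a 1.77-fold increase (edgeR adjusted p 0.0011). Pan2, a deadenylase, averaged 10.2 ± 1.44 CPM at day 7 and 6.07 ± 1.11 CPM at day 0, a 1.69-fold increase (edgeR adjusted p 0.010). The others that rose were Lsm1, Gigyf2 and 4 genes of the CCR4-NOT deadenylase: its scaffold Cnot1, and the catalytic subunits Cnot7, Cnot8 and Cnot6l. Other listed subunits of this deadenylase, Cnot2, Cnot3, Rqcd1 (Cnot9), Cnot10 and Cnot11, did not pass, at log2 fold changes of -0.23 to -0.12. Cnot6, the paralog of Cnot6l, fell by 1.68-fold (29.3 ± 2.10 CPM at day 7 and 49.4 ± 1.11 CPM at day 0, edgeR adjusted p 0.00038), while Cnot6l rose by 1.41-fold (adjusted p 0.0070). Dcp1b, a decapping cofactor, averaged 1.66 ± 1.05 CPM at day 7 and 3.71 ± 0.915 CPM at day 0 (2.30-fold lower, edgeR adjusted p 0.045), and it kept the call in 1 of 6 fits that left out a library, without the third day 7 column. Dcp1a and Dcp2 also fell, at log2 fold changes of -0.48 and -0.51 (edgeR adjusted p 0.011 and 0.015). With total counts alone, 1 of the 26 rose, and Pan2 was at 0.52 (adjusted p 0.086). Without day 0 replicate 1, or without day 0 replicate 2, 2 of the 26 fell. Over all genes, 3056 and 2999 fell in these fits, of 12723 and 12522 tested.

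Some of these increases were close to the threshold. Without day 0 replicate 1, without day 0 replicate 2 and without day 0 replicate 3, Cnot8 lost the call (adjusted p 0.077, 0.10 and 0.052) at log2 fold changes of 0.36, 0.32 and 0.39, against 0.37 with all libraries. Cnot1 lost it without day 0 replicate 1 (0.36, adjusted p 0.084) and without day 0 replicate 3 (0.35, adjusted p 0.073), against 0.39 with all libraries. With total counts alone, Cnot1, Cnot7, Cnot8, Cnot6l, Lsm1 and Gigyf2 had log2 fold changes of 0.16, 0.42, 0.13, 0.28, 0.49 and 0.26, none of which passed (adjusted p 0.095 to 0.57).

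**Figure D4:**
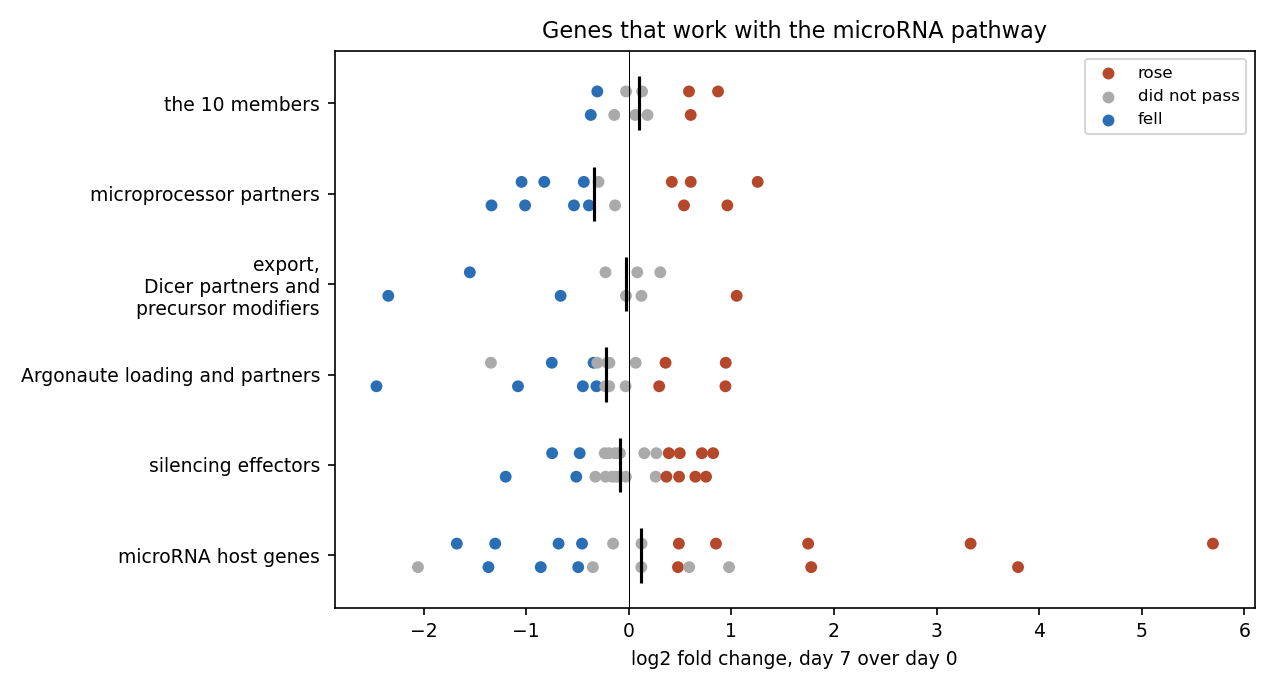
Log2 fold change, day 7 over day 0 (x axis), of each tested gene in the 10 core genes and the 5 wider lists (rows); red rose, blue fell, grey did not pass, and black bars are list medians. The core genes lie between -0.37 and 0.87, and the microRNA host genes reach 5.69.

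Genes known as hosts of microRNAs lay between log2 fold changes of -2.05 and 5.69, and the core genes between -0.37 and 0.87. A same-strand hairpin was matched in RefSeq for 19 of the 25 hosts listed, and none was matched for Ppargc1b. Of 22 tested hosts, 8 rose, 7 fell and 7 did not pass, with a median log2 fold change of 0.12, beside 60.0% called among all genes. Ppargc1b, a coactivator of mitochondrial genes that hosts miR-378, averaged 46.4 ± 13.2 CPM at day 7 and 0.902 ± 0.375 CPM at day 0, a 51.8-fold increase (edgeR adjusted p 9.8e-06). Pank3, a pantothenate kinase of coenzyme A synthesis, averaged 792 ± 45.4 CPM at day 7 and 57.1 ± 1.62 CPM at day 0, a 13.9-fold increase (edgeR adjusted p 3.1e-06). Dnm3os, the noncoding transcript that holds miR-199a and miR-214, averaged 18.03 ± 2.89 CPM at day 7 and 57.9 ± 5.37 CPM at day 0, a 3.19-fold decrease (edgeR adjusted p 5.0e-05). These 3 calls were kept in every fit that left out a library. A host transcript can be spliced without release of its hairpin, and the hairpin rows were at 0, so the level of the mature microRNA was not measured.

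Other hosts that passed the test with a change of 2-fold or more are named here after their values were seen. Pank1 averaged 18.8 ± 4.28 CPM at day 7 and 1.85 ± 0.0900 CPM at day 0, and Rcl1, an RNA terminal phosphate cyclase-like gene, averaged 39.8 ± 5.10 CPM at day 7 and 11.6 ± 0.247 CPM at day 0. Mir22hg averaged 14.1 ± 5.23 CPM at day 7 and 4.28 ± 0.5997 CPM at day 0. These 3 rose, while Ctdsp2 and Evl fell: Ctdsp2, a small phosphatase, averaged 98.8 ± 17.3 CPM at day 7 and 255 ± 11.3 CPM at day 0, and Evl, an actin regulator, averaged 12.7 ± 3.68 CPM at day 7 and 30.9 ± 0.182 CPM at day 0. Pank2 and Ctdspl are given because they share a microRNA with one of the hosts above. Pank2 averaged 35.2 ± 3.92 CPM at day 7 and 25.1 ± 1.43 CPM at day 0, and Ctdspl averaged 40.2 ± 10.1 CPM at day 7 and 22.2 ± 1.36 CPM at day 0. Both rose, and Pank2 lost the call with total counts alone (0.27, adjusted p 0.31). Mest, the host of miR-335, averaged 3.96 ± 6.57 CPM at day 7 and 14.004 ± 2.38 CPM at day 0. Mest did not pass, though the edgeR estimate was 4.15-fold lower at day 7 (edgeR adjusted p 0.14). Without the third day 7 column it passed (log2 fold change -6.20, adjusted p 6.9e-06), and it also passed with limma-voom (adjusted p 0.0038).

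The microRNAs of these hosts, from RefSeq (GRCm38.p6), are shown with the seed, bases 2 to 8, in capitals, so that hosts can be grouped by seed.
miR-103-3p, Pank3 and Pank2: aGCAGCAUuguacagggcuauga
miR-107-3p, Pank1: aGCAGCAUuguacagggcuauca
miR-26a-5p, Ctdspl and Ctdsp2: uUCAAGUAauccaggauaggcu
miR-22-3p, Mir22hg: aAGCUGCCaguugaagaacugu
miR-101b-3p, Rcl1: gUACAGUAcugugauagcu
miR-199a-3p, Dnm3os: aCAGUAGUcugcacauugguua
miR-214-3p, Dnm3os: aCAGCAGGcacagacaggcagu
miR-342-3p, Evl: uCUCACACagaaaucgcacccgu
The 3 pantothenate kinase genes host microRNAs of 1 seed, GCAGCAU, and all 3 rose, by 13.9-fold for Pank3, 10.1-fold for Pank1 and 1.40-fold for Pank2. The hosts of miR-26a went apart, since Ctdspl rose by 1.80-fold and Ctdsp2 fell by 2.58-fold, although both hold the same mature sequence. Ctdsp1, the host of miR-26b, which has the same seed, UCAAGUA, fell by 1.37-fold (63.7 ± 7.84 CPM at day 7 and 87.4 ± 1.98 CPM at day 0, edgeR adjusted p 0.011). Dnm3os carries microRNAs of different seeds in a single transcript. The decrease is that of the transcript, and neither microRNA was measured.

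Piwi genes, the germline branch of the Argonaute family, were near absent: Piwil1 was listed at 0, Piwil2 had 11 counts at day 7 and 14 counts at day 0, and Piwil4 had 0 counts at day 7 and 5 counts at day 0, summed over 3 libraries each. None reached the count needed for a test.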

How the data were processed

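RNA-seq was measured in 6 libraries of 3T3-L1 cells. The authors deposited 1 table of estimated counts per gene symbol, which are not whole for some genes; the submitters' processing notes name Trim Galore 0.6.7, STAR 2.7.10a, Salmon 1.9.0 and build GRCm38, and the labels name the Illumina Stranded Total RNA Prep kit. No settings, annotation or use of strand are stated. The 10 value columns beside the count block were not used. Of the 43760 rows, 85 names occur on more than 1 row.

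Counts were rounded, filtered with filterByExpr (minimum count 10, minimum total 15), scaled by TMM and tested in edgeR 4.0.16 with group as the only term, at an adjusted p of 0.05; 12354 genes were tested. On simulated data with 12354 genes, the fit recovered 74 of 100 genes changed 2-fold and 99 of 100 changed 4-fold, with 8 false calls. The simulation changed only these genes, gave every gene the same coefficient of variation and held no change under 2-fold. Its rates are therefore not the power or error of the calls for the 10 genes. The biological coefficient of variation was 0.186. CPM values are TMM-scaled. Ratios used a pseudocount of 0.5 CPM, and shares and ratios were tested by exact permutation. Intervals on counts cover counting error only. Gene positions, exon lengths and the shared stretch came from GENCODE M21 (GRCm38); stretches were found with words of 31 bases. Of 25 host genes, 23 are in the table and 19 had a same-strand RefSeq hairpin. The alternatives tried were other scalings (total counts, upper quartile, RLE), other filters, DESeq2 1.42.0, limma-voom 3.58.1, leaving out abundant or mitochondrially encoded rows, and leaving out each library.

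The 10 genes, the wider lists and the tests were chosen with earlier results of these data known. The core genes are named whatever their result. For each wider list, the text names the called genes with the largest changes, 2 in the more common direction and 1 in the other, and the uncalled ones where 5 or fewer; other genes named from the lists were chosen after their values were seen. For the microprocessor partners, 1 gene that this rule names is not reported here.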

Additional observations from a re-analysis of the deposited data

How the results depend on the processing

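No called gene named in the text changed direction under the alternatives run for it. Increases outnumbered decreases over all genes with TMM (3802 and 3611), and not with upper-quartile scaling (3519 and 3848). With total counts alone, 2355 genes rose and 4025 fell, so 36.9% of calls were increases, against 51.3% with TMM; 1 of the 10 genes rose, 2 of 14 microprocessor partners, 2 of 18 Argonaute partners and 1 of 26 silencing effectors. Ago2 then stood at 0.38 (adjusted p 0.19) and Tnrc6b at 0.38 (adjusted p 0.22). With no filter 1 of the 10 genes fell, since Drosha was at -0.33 (adjusted p 0.055). Argonaute partners that rose numbered 2, against 4, with RLE scaling, upper-quartile scaling, no filter, DESeq2 or without mitochondrially encoded genes. The Ago2 share difference was 3.02 points with coding length and 3.01 points with no division by length, against 5.72; that of Ago1 was -5.74 and -5.73 points, against -7.999. The 10 genes gave 3 rising and 2 falling with RLE and upper-quartile scaling, at 10 CPM in 3 libraries, with DESeq2, limma-voom and without the 10 most abundant rows.

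Over the fits that left out 1 library, 1 to 3 of the 10 genes rose and 0 to 2 fell; 3118 to 4185 of all genes rose and 2999 to 4044 fell. Argonaute partners gave 2 to 3 rising and 3 to 9 falling, export and Dicer partners 1 to 2 and 3 to 5, and silencing effectors 6 to 9 and 2 to 5. The log2 fold change was 0.46 to 0.72 for Ago2, 0.44 to 0.69 for Tnrc6b, -0.37 to -0.24 for Drosha and -0.41 to -0.35 for Dgcr8. The cause of these shifts was not tested. No paired analysis was possible because the day 7 columns all carry replicate number 1. With 3 libraries a group, exact tests cannot pass 0.05, and Ago4, Lin28b and the Piwi genes had few or no counts.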
